A study of Harpegnathos saltator with 12 samples.

Results

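A set of 7 muscle sarcomere genes was followed in adult antennae of the ant Harpegnathos saltator: Mhc, Mlc2, Mf, Tm1, wupA, sls and Zasp66. They were picked by name as parts of the contractile apparatus, with earlier results of these data known. They make up 7 of the 14407 genes counted. All 7 passed the minimum mean count of 10 reads per library that 10740 genes passed, and the lowest count of any of them in any library was 553 reads. RNA from whole antennae was sequenced in 12 libraries. The wild type had 2 of them. Carriers of 1 copy of a CRISPR-made mutant orco allele, the heterozygotes, had 3, and ants with both copies mutant, the homozygotes, had 7. The wild-type and heterozygous libraries are called controls where they are joined (n = 5). The study's methods do not give the age of the ants behind these libraries. For its other adult material they name young (callow) workers of wild-type colonies, wild-type adults of unknown age and freshly eclosed mutants. Antennae were cut at their base in that material. Whether age differed between the genotypes here is therefore not known. The number of antennae in a library is not given in the sources used here, nor is it stated that libraries of a genotype came from separate ants, so the tests measure the spread between libraries.

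A sarcomere is the repeating contractile unit of striated muscle. Thick filaments of myosin pull on thin filaments of actin, troponin and tropomyosin regulate that contact through calcium, and the thin filaments are anchored in the Z-disc at each end of the unit. In insects, the muscles that move the antenna lie in the head and in the basal segments, whereas the long flagellum, which carries most of the sensory hairs, has no muscle of its own. Orco is the co-receptor that insect odorant receptors need to reach the dendrite, and it is not part of muscle. The question asked of the 7 genes was whether they rose and fell together over the libraries, as they would if all of them simply followed the share of muscle RNA. In whole antennae, a larger number of muscle cells, more RNA per muscle cell and less RNA from other cells cannot be told apart. In its single-nucleus data the paper reported muscle cells as reduced in the mutant, and left this unexplained. The roles given below are those known from Drosophila and other animals, and no transcript lengths were used here, so levels were compared between libraries within a gene and never between genes.

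Gene counts per library ran from 4111828 to 23238969 reads. The weight of 3 reads, taken as the floor of detection, was therefore 0.143 to 0.653 CPM (counts per 1000000 gene counts), far under every member. CPM here are scaled with TMM, edgeR's correction for library composition. HsOrco itself, which checks the labels, stood at 1670 to 2769 CPM in the controls and 13.6 to 157 CPM in the homozygotes. Sequencing was done in 2 batches by the labels. Wild-type replicate 2 and the first replicate of both mutant genotypes formed batch 1, and the other 9 libraries batch 2.

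Together the 7 genes took 0.270% and 0.446% of the gene counts in the wild-type libraries. In the heterozygotes they took 1.06%, 0.240% and 0.969%, and in the homozygotes 0.806% to 1.85%, with a median of 1.30%. The means were 0.358% ± 0.125 (SD, n = 2), 0.757% ± 0.451 (SD, n = 3) and 1.33% ± 0.326 (SD, n = 7). Counting error was small beside this spread. The 95% Wilson interval was 0.237% to 0.243% in the lowest library, heterozygote replicate 2, and 1.84% to 1.86% in the highest, homozygote replicate 7, and it covers counting error only. Heterozygote replicates 1 and 3 thus lay within the homozygote range, while heterozygote replicate 2 lay below both wild-type libraries.

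**Figure D1:**
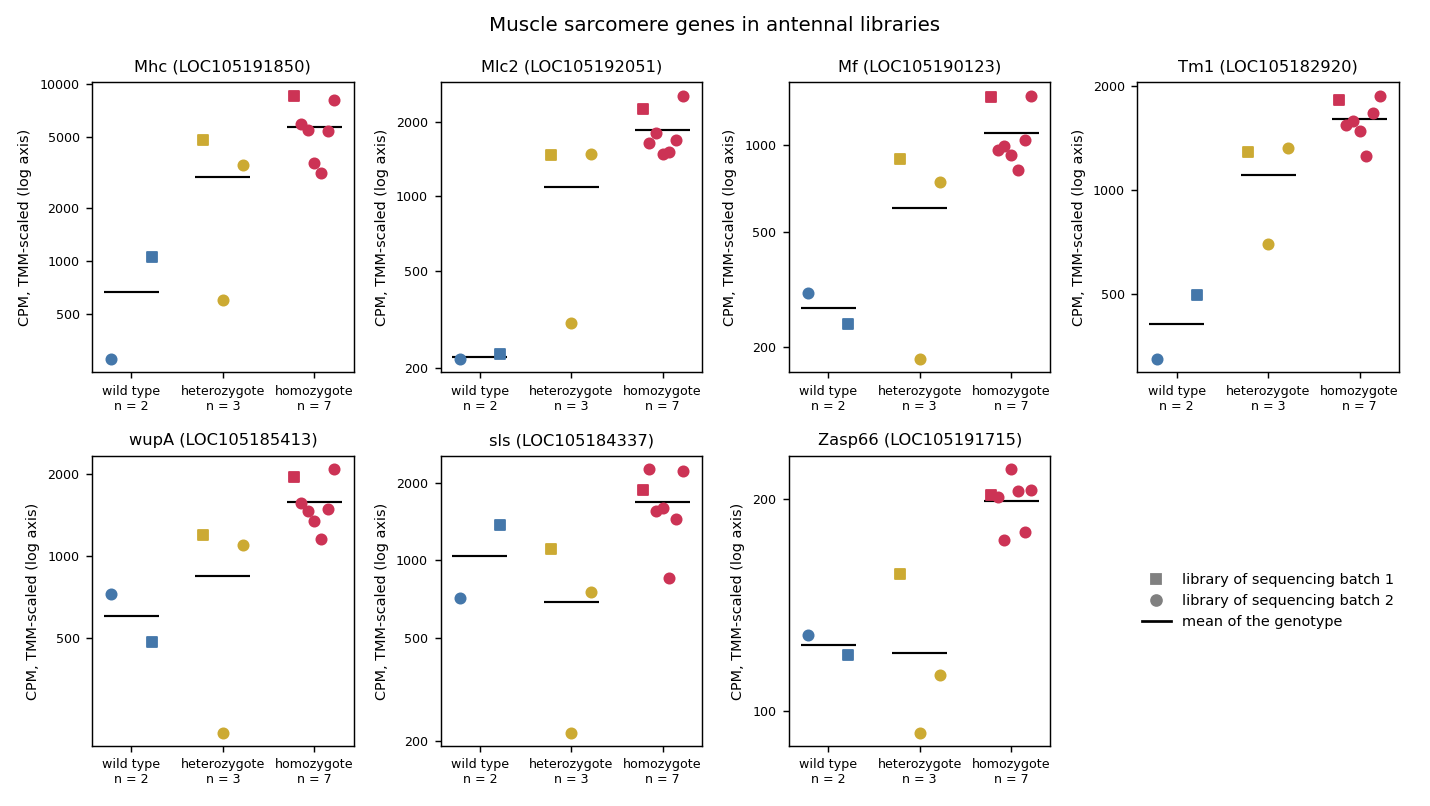
TMM-scaled CPM on a log axis of the 7 sarcomere genes in each antennal library, by genotype. Squares are libraries of batch 1, circles those of batch 2, and lines are genotype means. Heterozygote replicate 2, the lowest yellow circle in each panel, lies between or below the wild-type libraries for every gene but Mlc2 and Tm1, and only Zasp66 has all 7 homozygotes above all 5 controls.

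Of the thick-filament genes, Mhc (LOC105191850) encodes the muscle myosin heavy chain, the motor itself. Its level was 281 and 1053 CPM in the wild-type libraries, and 4819, 603 and 3469 CPM in heterozygote replicates 1, 2 and 3. In the homozygotes it was 3111 CPM at the lowest, 5467 at the median and 8559 at the highest. All 7 homozygotes were above every wild-type library, but only 5 of 7 were above every control, because heterozygote replicate 1 was higher than homozygote replicates 4 and 5. The highest library exceeded the lowest 30.5-fold, the widest range of the 7 genes. Mhc averaged 5711 ± 2048 CPM over the homozygotes (SD, n = 7) and 2045 ± 1994 CPM over the controls (SD, n = 5).

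Mlc2 (LOC105192051), a myosin light chain that regulates the motor, followed a similar order. It stood at 219 and 228 CPM in the wild-type libraries, a gap far smaller than that of Mhc. The heterozygotes had 1478, 306 and 1493 CPM, and the homozygotes 1482, 1688 and 2572 CPM at the lowest, the median and the highest. Here even heterozygote replicate 2 was above the wild type, and heterozygote replicate 3 narrowly exceeded the lowest homozygote. Mf (LOC105190123), myofilin, is a structural protein of the thick filament core. Its wild-type libraries had 309 and 240 CPM, its heterozygotes 894, 182 and 743 CPM, and its homozygotes 817, 992 and 1482 CPM at the lowest, the median and the highest. For Mf it was heterozygote replicate 2 that was lowest of all, and 6 of 7 homozygotes exceeded every control.

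On the thin filament, Tm1 (LOC105182920) encodes a tropomyosin. In Drosophila this gene also makes cytoplasmic forms outside muscle, and the counts do not separate transcripts. Its level was 325 and 497 CPM in the wild-type libraries, 1292, 696 and 1325 CPM in the heterozygotes, and 1256, 1580 and 1876 CPM at the lowest, the median and the highest homozygote. As for Mlc2, heterozygote replicate 2 was above the wild type. wupA (LOC105185413) encodes troponin I, the inhibitory subunit of troponin. It had 723 and 482 CPM in the wild-type libraries and 1193, 224 and 1097 CPM in the heterozygotes. The homozygotes had 1147, 1485 and 2074 CPM at the lowest, the median and the highest. Wild-type replicate 1, the lowest of the 12 libraries for Mhc, had the higher wupA level of the wild-type pair.

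At the Z-disc, sls (LOC105184337) encodes Sallimus, a giant elastic protein of the titin kind that ties thick filaments to the disc. Its lowest genotype mean was that of the heterozygotes, as it was, by less than the spread between libraries, for Zasp66. The wild-type libraries had 714 and 1368 CPM, above or within the heterozygote values of 1110, 216 and 755 CPM. The homozygotes had 856, 1594 and 2252 CPM at the lowest, the median and the highest, so that homozygote replicate 5 was below wild-type replicate 2. Zasp66 (LOC105191715) encodes a PDZ-domain protein of the Z-disc. It varied least, with 128 and 120 CPM in the wild-type libraries, 157, 93.2 and 112 CPM in the heterozygotes, and 175, 203 and 220.5 CPM at the lowest, the median and the highest homozygote. Its range over the 12 libraries was 2.37-fold. For Zasp66 alone among the 7, every homozygote was above every control, a separation shared by 2.66% of all genes tested. It was also the 1 member with every homozygote above every heterozygote, which held for 5.07% of all genes. Every homozygote was above both wild-type libraries for 6 of 7 members, the exception being sls, and for 15% of all genes. Every heterozygote was above both of them for 2 of 7, Mlc2 and Tm1, and for 14% of all genes.

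Against the controls, all 7 genes were higher in the homozygotes. The same call was made for 18.8% of all genes tested. The median log2 fold change of the 7 was 1.37, against -0.040 over all genes. For each gene, all 7 homozygotes were above the control mean. The share of all genes with this trait was not counted, and the controls behind that mean differed widely. The size of the difference was unequal: it was 2.53 ± 0.48 (log2, ± SE) for Mhc (edgeR adjusted p = 0.00159), 2.03 ± 0.36 for Mlc2 (edgeR adjusted p = 0.00111) and 1.54 ± 0.34 for Mf (edgeR adjusted p = 0.00409). The thin-filament genes differed by 1.37 ± 0.19 for Tm1 (edgeR adjusted p = 2.15e-04) and 1.22 ± 0.37 for wupA (edgeR adjusted p = 0.0197). For sls it was 1.29 ± 0.38 (edgeR adjusted p = 0.0173), and for Zasp66 0.76 ± 0.13 (edgeR adjusted p = 7.19e-04), the smallest difference of the 7. These fold changes are adjusted for batch and weight wild type and heterozygotes equally, and their SE are approximate. The wupA call was lost in batch 2 alone (1.13, edgeR adjusted p = 0.0611) and without wild-type replicate 2 or homozygote replicate 1. The sls call was lost with no batch term (0.99, edgeR adjusted p = 0.0716) and without wild-type replicate 1.

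**Figure D2:**
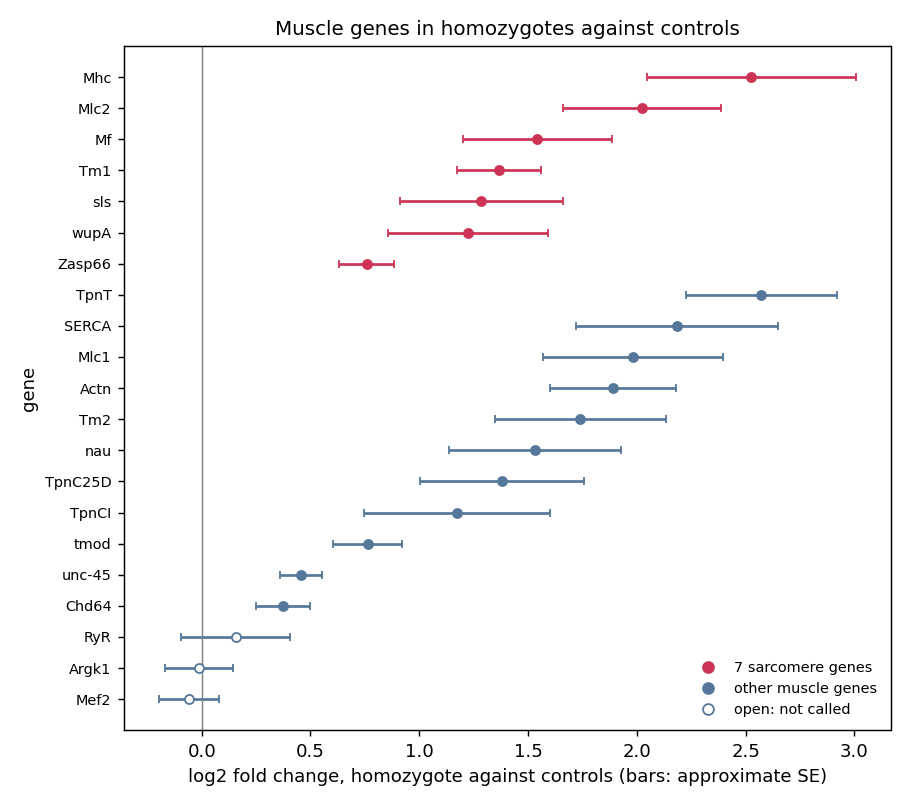
Log2 fold changes of homozygotes against controls for the 7 sarcomere genes (red) and 14 other muscle genes (blue), each with its approximate SE. Filled points passed an adjusted p of 0.05. The members run from 0.76 for Zasp66 to 2.53 for Mhc, and the open points, RyR, Argk1 and Mef2, lie within 1 SE of 0.

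The controls were not alike. Against the wild type alone, 6 of 7 genes were higher in the homozygotes, where 19.1% of all genes were. The differences were largest for Mhc at 3.76 ± 0.73 (edgeR adjusted p = 0.00183) and Mlc2 at 3.18 ± 0.55 (edgeR adjusted p = 9.02e-04). Those of Tm1 (2.12 ± 0.28, edgeR adjusted p = 1.51e-04), Mf (2.10 ± 0.49, edgeR adjusted p = 0.00562), wupA (1.45 ± 0.52, edgeR adjusted p = 0.0397) and Zasp66 (0.74 ± 0.17, edgeR adjusted p = 0.00524) followed. That of sls was 1.04 ± 0.51 and did not pass (edgeR adjusted p = 0.115). Without wild-type replicate 1, Mhc (3.23) and wupA lost their calls, and 4 of 7 were left. The wupA call against the wild type held in few settings: it was lost in 9 of the 12 omissions of 1 library (1.03 to 2.20 over all 12), under scaling by library totals (1.32), with no batch term (1.38) and in batch 2 alone (1.06).

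Against the heterozygotes, 2 of 7 passed, where 6.82% of all genes were higher. These were sls at 1.53 ± 0.43 (edgeR adjusted p = 0.0262) and Zasp66 at 0.78 ± 0.15 (edgeR adjusted p = 0.00275), the Z-disc pair that had a negative value between heterozygotes and wild type. Mhc had a log2 fold change of 1.29 ± 0.51 (edgeR adjusted p = 0.0933) and Tm1 of 0.61 ± 0.21 (edgeR adjusted p = 0.0578), and all 7 values were positive. This count turned on single heterozygote libraries: it was 1 without heterozygote replicate 2, where sls (1.06) lost its call, as it did with no batch term (1.28), and 5 without heterozygote replicate 3, where Mhc (2.24), Mlc2 (1.56) and Tm1 (0.93) gained one. By DESeq2 it was 7.

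Between heterozygotes and wild type, 3 of 7 were higher, where 9.71% of all genes were: Mhc by 2.48 ± 0.69 (edgeR adjusted p = 0.0308), Mlc2 by 2.31 ± 0.54 (edgeR adjusted p = 0.0158) and Tm1 by 1.50 ± 0.28 (edgeR adjusted p = 0.00556). Mf had a value of 1.12 ± 0.50 (edgeR adjusted p = 0.143) and wupA one of 0.45 ± 0.53 (edgeR adjusted p = 0.580). The Z-disc genes were at -0.49 ± 0.51 for sls (edgeR adjusted p = 0.521) and -0.033 ± 0.18 for Zasp66 (edgeR adjusted p = 0.916). The signs for wupA and Zasp66 depended on single libraries. By edgeR 0 of 7 passed without wild-type replicate 1 (3 at an unadjusted p under 0.05, and 3 by DESeq2 on all libraries), Tm1 alone passed in batch 2 alone and without heterozygote replicate 1 or 3, and 4 passed without heterozygote replicate 2. The 4 comparisons share libraries, so their values are given side by side and not as independent results.

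The fitted difference between batches was largest for Mhc, but it passed the threshold for no member. In the same fit, the difference of batch 2 from batch 1 was -1.20 ± 0.48 for Mhc (edgeR adjusted p = 0.0690) and -0.74 ± 0.40 for sls (edgeR adjusted p = 0.160), and the other 5 genes lay between -0.45 and -0.20, none of them past the threshold. Within batch 1, with 1 library per genotype and no test, the order was wild type, heterozygote, homozygote for every gene but sls, for which the heterozygote was lowest.

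The order of the libraries was similar for the genes other than sls and Zasp66. For sls, wild-type replicate 2 ranked 7 and homozygote replicate 2 ranked 1, against 10 or 11 and 3 to 5 for the other members. For Zasp66, homozygote replicate 4 ranked 1 and homozygote replicate 5 ranked 3, against 4 to 8 and 6 to 9 for the others. Homozygote replicates 7 and 1 ranked first with mean ranks of 1.43 and 2.29 over the 7 genes (1 is the highest of 12). Homozygote replicate 5 (7.43) and heterozygote replicate 1 (7.57) met in the middle, and wild-type replicate 2 (10.1), wild-type replicate 1 (10.9) and heterozygote replicate 2 (11.3) were last. Over the 12 libraries, all 21 pairs of the 7 genes had a positive correlation of their log2(CPM + 1), with a median r of 0.837 (median Spearman rho 0.881). The closest pair was Mlc2 with Tm1 (r = 0.970) and the loosest Tm1 with sls (r = 0.551). These points share their library, its depth and its scaling, and genotype separates many of them, so the values are descriptions. After genotype and batch were fitted out, the median r over the 21 pairs was 0.786 and all were again positive, from 0.216 for Tm1 with Zasp66 to 0.995 for Mf with wupA. A first principal component of the standardised levels held 84.7% of the variance of the 7 genes, and the second 9.70%.

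**Figure D3:**
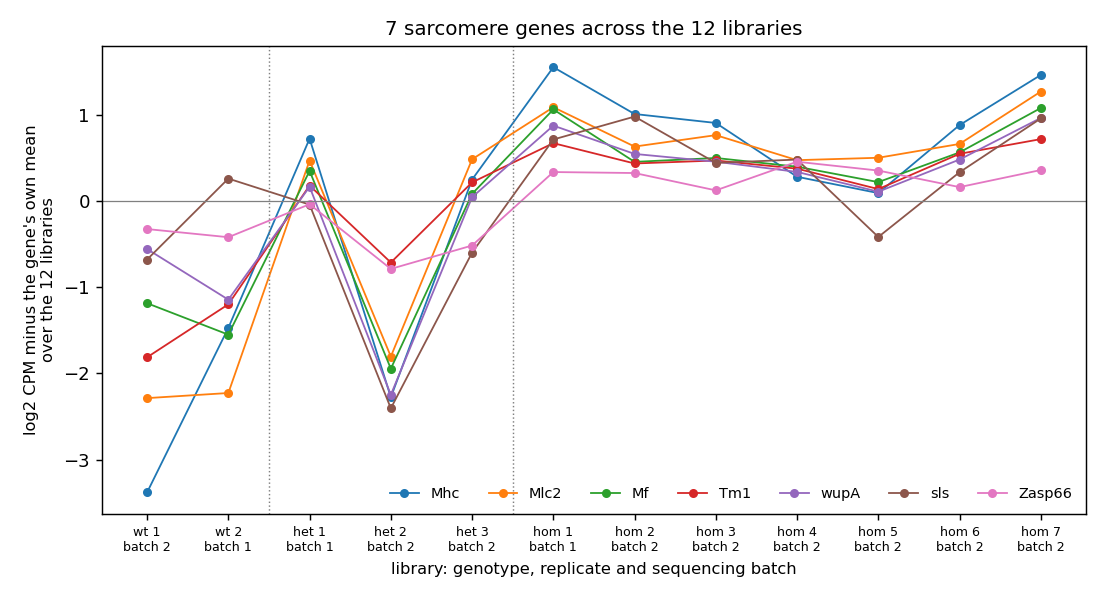
Log2 CPM of each sarcomere gene minus its own mean over the 12 libraries, with genotype, replicate and batch on the horizontal axis (wt, wild type; het, heterozygote; hom, homozygote). Most lines run together in the homozygotes and all drop at heterozygote replicate 2, fan out at the wild-type libraries, and that of Zasp66 is the flattest.

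Within the 7 homozygotes genotype does not vary, although replicate 1 came from batch 1 and the others from batch 2. There 6 of the genes still moved together, sls the most loosely, and Zasp66 did not. Among the other 6 genes, the 15 pairs had r from 0.584 to 0.968. By rank sls was looser: its Spearman rho was 0.357 with Mlc2, 0.429 with Mf and with Tm1, and 0.75 with Mhc and with wupA. The pairs without sls had rho of at least 0.821. The 6 pairs with Zasp66 ran from -0.202 to 0.084, with 3 of them positive. Zasp66 itself spanned only 175 to 220.5 CPM in these libraries, and the SD of its log2 level was 0.12 against 0.55 for Mhc. Its highest homozygote was replicate 4, in which Mhc was second lowest. Followed against Mhc, wupA (r = 0.958), Tm1 (r = 0.930), Mf (r = 0.910) and Mlc2 (r = 0.890) were close in the homozygotes (n = 7) and sls was looser (r = 0.773). When the 2 libraries farthest from the median of Mhc, wild-type replicate 1 and heterozygote replicate 2, were left out of the 12, r with Mhc was 0.932 for Mlc2, 0.969 for Mf, 0.948 for Tm1 and 0.976 for wupA. It was then 0.606 for Zasp66, from 0.725, and 0.471 for sls, from 0.713, so the relation of sls to Mhc over all libraries rested in part on those libraries.

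The genes did not move by the same amount. If all 7 transcripts only followed 1 common share, their ratios to each other would be constant, and a log2 level plotted against that of Mhc would have a slope of 1. The standardised major axis slope on Mhc, which is the ratio of the SDs of both log2 levels, was 0.84 for Mlc2, 0.64 for Mf, 0.61 for sls, 0.59 for wupA, 0.52 for Tm1 and 0.27 for Zasp66. The SDs behind these slopes ran from 1.55 for Mhc and 1.30 for Mlc2 to 0.41 for Zasp66. Because Mhc had the largest SD, every slope on it was bound to be under 1. That all of them are is therefore not a result, and only their sizes describe how unequally the genes moved. The ratio of Mlc2 to Mhc ranged 3.60-fold over the 12 libraries, from 0.217 to 0.780. Those of Tm1 and Mf ranged 5.45-fold and 6.72-fold, and those of wupA, sls and Zasp66 11.3-fold, 11.7-fold and 19.3-fold.

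The highest ratio to Mhc came from the same library for each of the 6 genes, which share Mhc as denominator and so are not separate observations. This was wild-type replicate 1, which had the lowest Mhc level of all, and in which the ratio was 2.58 for wupA, 2.54 for sls and 1.10 for Mf. In the 7 homozygotes the ratios were far steadier and ranged 1.60-fold for Mf, 1.66-fold for wupA, 1.83-fold for Mlc2, 1.97-fold for Tm1, 2.05-fold for sls and 2.78-fold for Zasp66. The levels themselves also varied less there. Against the SD of the log2 level, the SD of the log2 ratio was smaller for Mf (0.28 against 0.33), wupA (0.27 against 0.30) and sls (0.35 against 0.48). The ratio had the larger SD for Mlc2 (0.31 against 0.30), Tm1 (0.37 against 0.19) and Zasp66 (0.58 against 0.12). Heterozygote replicate 2, in which all 7 genes were low, had ratios of 0.372 for wupA and 0.303 for Mf, close to the top of the homozygote range for wupA (0.379) and somewhat above it for Mf (0.263). Its Tm1 ratio of 1.15 was near that of wild-type replicate 1 (1.16).

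**Figure D4:**
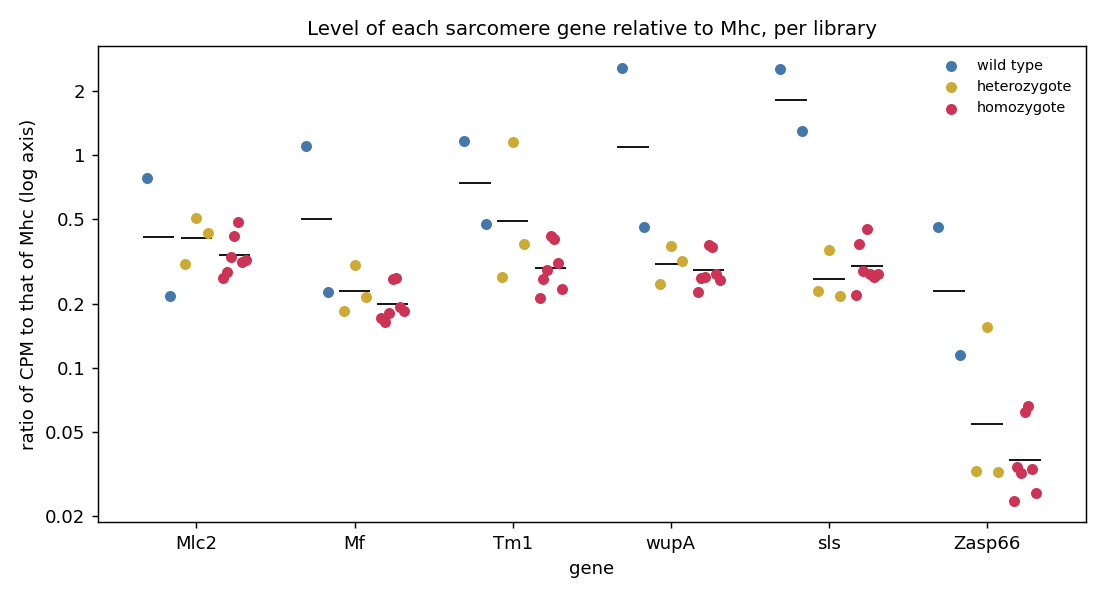
Ratio of the CPM of 6 sarcomere genes to that of Mhc in each library, on a log axis, with the geometric mean of each genotype as a line. Homozygote ratios range 1.60-fold to 2.78-fold within a gene, and wild-type replicate 1 is the highest point for each gene, up to 2.58 for wupA. The absolute height of a ratio is not compared between genes.

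The ratios were compared between the 7 homozygotes and the 5 controls on the log2 scale with an exact two-sided permutation test, 6 ratios in all, with p not adjusted for their number. All 6 have Mhc, the member with the largest difference, as denominator, so their common negative sign restates the fold changes above and is not a further result. The difference was -0.97 for Tm1 (exact permutation p = 0.0278), -1.39 for Zasp66 (exact permutation p = 0.0568), -0.83 for wupA (exact permutation p = 0.0581), -0.65 for Mf (exact permutation p = 0.0758), -0.92 for sls (exact permutation p = 0.186) and -0.27 for Mlc2 (exact permutation p = 0.376). The smallest p this test can give is 0.00126. Only Tm1 passed 0.05, and without wild-type replicate 1 its difference was -0.72 (exact permutation p = 0.0727). It lost its call in 6 of the 12 omissions of 1 library, also without heterozygote replicate 2 and homozygote replicates 1, 2, 3 and 7. Mf, wupA and Zasp66 passed without heterozygote replicate 1 (exact permutation p = 0.0273, 0.0152 and 0.0182), Zasp66 also without heterozygote replicate 3, and Mf and wupA also without homozygote replicate 4 or 5. Without wild-type replicate 1 the ratios other than that of Tm1 differed by between -0.83 for Zasp66 and -0.038 for Mlc2. Within batch 2, where 3 controls remain and the smallest possible p is 0.0119, Mlc2 (-0.65, exact permutation p = 0.0238), Tm1 (-1.36, exact permutation p = 0.0357) and Mf (-1.02, exact permutation p = 0.0476) passed.

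Other muscle genes were taken by their RefSeq symbols, 14 of 16 symbols being found, and all 14 were tested. Of these, 11 were higher in the homozygotes than in the controls (18.8% of all genes were) and 3 were not called, with a median log2 fold change of 1.28. Against the wild type 9 were higher (19.1% of all genes), and against the heterozygotes 4 (6.82% of all genes), which were TpnT, Actn, Chd64 and unc-45. Between heterozygotes and wild type 2 of 14 were higher, Mlc1 and Actn, a share near the 9.71% of all genes.

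SERCA, the calcium pump of the sarcoplasmic reticulum, averaged 7257 ± 2411 CPM over the homozygotes (SD, n = 7) and 2668 ± 2215 CPM over the controls (SD, n = 5), a log2 fold change of 2.18 ± 0.46 (edgeR adjusted p = 0.00316). Mlc1, the other myosin light chain, was at 216 and 180 CPM in the wild-type libraries, 1228, 170 and 1095 CPM in the heterozygotes, and 1090 to 1960 CPM in the homozygotes, and thus shared the low heterozygote replicate 2. Its log2 fold change was 1.98 ± 0.41 (edgeR adjusted p = 0.00291). Actn, the alpha-actinin that crosslinks thin filaments at the Z-disc, differed by 1.89 ± 0.29 (edgeR adjusted p = 4.09e-04), and Tm2, a muscle tropomyosin, by 1.74 ± 0.39 (edgeR adjusted p = 0.00445).

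The troponin C genes TpnC25D and TpnCI, which bind calcium, were higher by 1.38 ± 0.38 (edgeR adjusted p = 0.0124) and 1.17 ± 0.43 (edgeR adjusted p = 0.0442). The largest log2 fold change of the 14 was that of TpnT, the tropomyosin-binding subunit of troponin, at 2.57 ± 0.35 (edgeR adjusted p = 1.60e-04), although its level was low, 58.2 ± 35.0 CPM (SD, n = 7) against 14.7 ± 9.19 CPM (SD, n = 5). nau, the fly counterpart of MyoD, differed by 1.53 ± 0.40 (edgeR adjusted p = 0.00949), and tmod, which caps thin filaments, by 0.76 ± 0.16 (edgeR adjusted p = 0.00277). The myosin chaperone unc-45 and the calponin-like Chd64 differed by 0.46 ± 0.10 (edgeR adjusted p = 0.00308) and 0.37 ± 0.12 (edgeR adjusted p = 0.0289). The calls of TpnT, SERCA, Mlc1, Actn and Tm2 held under each alternative run. That of TpnCI was lost in 7 of the 12 omissions of 1 library, under scaling by library totals and in batch 2 alone, and that of TpnC25D without homozygote replicate 1. With no batch term the calls of tmod, nau and Chd64 were lost, under scaling by library totals those of unc-45 and Chd64, without wild-type replicate 1 those of nau and Chd64, and that of Chd64 also without heterozygote replicate 2 or homozygote replicate 6.

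The 3 genes that were not called also did not follow the members. RyR, the calcium release channel, had a log2 fold change of 0.16 ± 0.25 (edgeR adjusted p = 0.635), Argk1, arginine kinase, of -0.012 ± 0.15 (edgeR adjusted p = 0.956), and Mef2, a transcription factor of muscle differentiation, of -0.057 ± 0.14 (edgeR adjusted p = 0.758). The sign of each of them changed under some alternative. Their correlation with the mean profile of the 7 genes over the 12 libraries was 0.233, 0.162 and 0.015. Among the called genes it was highest for Mlc1 at 0.972, SERCA at 0.963, Tm2 and Actn at 0.944, and unc-45 at 0.941. It was 0.918 for nau, 0.890 for TpnC25D, 0.881 for TpnCI, 0.862 for TpnT and 0.829 for tmod, and only 0.613 for Chd64. In insects RyR, Argk1 and Mef2 are also expressed outside muscle, in neurons among other cells. Whether that bears on their values here was not tested.

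Over all 10740 genes tested, the median correlation with the mean profile of the 7 genes was -0.039, and 110 genes (1.02%) had r above 0.9, members included. The 7 members entered that mean themselves and had r from 0.817 for sls to 0.983 for Mf. The 5 most similar genes outside both lists were LOC105190505 (r = 0.991), FMRFaR (r = 0.990), LOC105181245 (r = 0.987), LOC105184871 (r = 0.986) and LOC105184333 (r = 0.985). FMRFaR, the receptor of FMRFamide neuropeptides, averaged 40.1 ± 9.47 CPM over the homozygotes (SD, n = 7) and 16.0 ± 8.51 CPM over the controls (SD, n = 5). The other 4 carry no descriptive symbol. LOC105181245 had 1828 ± 348 CPM (SD, n = 7) against 680 ± 536 CPM (SD, n = 5).

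Markers of other cell types also differed between these libraries. Of 13, 5 were lower in the homozygotes than in the controls (25% of all genes were) and 3 were higher (18.8% of all genes were). The higher ones were Rh50, repo and sv. Rh50, an ammonia transporter used as a marker of a class of sensory neurons, moved with the sarcomere genes. It stood at 21.1 to 63.1 CPM in the controls and 77.2 to 109 CPM in the homozygotes. Every homozygote was thus above every control, as for 2.66% of all genes tested. Rh50 differed by 1.47 ± 0.20 (edgeR adjusted p = 1.78e-04). Its correlation with the mean profile of the 7 genes was 0.959, above that of 6 of the members themselves. The 4 neuron markers nSyb, fne, Syt1 and onecut, none at 0 in any library, summed to 1335 to 2214 CPM in the controls and 556 to 1263 CPM in the homozygotes. Of these, nSyb (-1.77), onecut (-1.93) and Syt1 (-0.57) were lower in the homozygotes by log2 fold change. fne was not called (-0.42, edgeR adjusted p = 0.0585), and its level in homozygote replicate 1, 569 CPM, was above that in every control (314 to 537 CPM).

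The 6 markers of glia, epithelium and support cells, none at 0 in any library, summed to 3426 to 7539 CPM in the controls and 3950 to 5938 CPM in the homozygotes, which overlapped. LOC105182650, a support cell marker that was not called, made up 86.0% to 92.2% of that sum. The other 5 summed to 452 to 591 CPM in the controls and 444 to 582 CPM in the homozygotes. Among these 5, repo, a glial transcription factor, was higher by 0.35 ± 0.11 (edgeR adjusted p = 0.0217), a call lost under scaling by library totals (0.22) and without wild-type replicate 1 or heterozygote replicate 2. The support cell marker sv, a Pax transcription factor, was higher by 1.54 ± 0.33 (edgeR adjusted p = 0.00314), a call lost with no batch term (0.79). LOC105190591, another support cell marker, was lower by a log2 fold change of -0.83 ± 0.12 (edgeR adjusted p = 2.82e-04). Its level was 121 to 195 CPM in the controls and 74.0 to 102 CPM in the homozygotes. The part of these shifts in the higher sarcomere genes was not tested.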

How the data were processed

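Adult antennae were ground and their poly(A) RNA was made into unstranded libraries. The authors aligned reads with STAR 2.6.1d and deposited raw gene counts per library. The column of counts without strand was used, since the first-strand column held 50.0% to 50.6% of the stranded sum. The deposited table of normalized counts was not used, and its DESeq2 1.34.0 processing played no part. Lines that name no gene were left out: unmapped (1.92% to 6.53% of the reads), multimapping (1.69% to 2.79%), without feature (13.0% to 18.3%) and ambiguous (2.29% to 4.23%), so that 70.3% to 79.3% were gene counts. No 2 libraries were duplicates.

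Genes with a mean count of at least 10 were tested in edgeR 4.0.16 (R 4.3.3, limma 3.58.1) with the quasi-likelihood test, TMM scaling, genotype and sequencing batch as terms, all 12 libraries in 1 fit, and Benjamini-Hochberg adjustment over all 10740 genes at 0.05. For controls, the coefficients of wild type and heterozygotes were averaged with equal weight. Each SE came from the log2 fold change and its F statistic. Correlations used log2(CPM + 1), and Pearson and Spearman coefficients carry no p. Exact permutation tests on ratios to Mhc ran over all 792 arrangements of the libraries (84 in batch 2) and are two-sided on the absolute difference of means. The count script was tested on simulated data.

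Alternatives were scaling by library totals or DESeq2 size factors, DESeq2 1.42.0, no count minimum, other pseudocounts, no batch term, batch 2 alone, a replicate block and leaving out each library. The permutation tests on the ratios and their alternatives were added after seeing the data. Members and lists were chosen with earlier results of these data known. Genes named are the 7 members, the muscle list, its 10 highest by mean level first, the 5 genes most like the mean of the members, and the cell type markers. The muscle and oxidative phosphorylation lists were to be built from product names, were translated to RefSeq symbols (assembly Hsal_v8.6) once the reference was seen to hold symbols only, and a planned cuticle list was not used. Of the 14407 gene IDs, 13545 matched that table by number.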

Additional observations from a re-analysis of the deposited data

How the results depend on the processing

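Of the 7 members, all kept a positive difference between homozygotes and controls under every alternative run, and 6 or 7 passed when 1 library was left out, 6 with no batch term, 6 in batch 2 alone and 5 with the replicate block. The count against heterozygotes was 7 by DESeq2, 1 with no batch term, 0 by edgeR with the replicate block (3 at an unadjusted p under 0.05) and 1 to 5 when 1 library was left out. Against the wild type it was 4 to 6 when 1 library was left out, and between heterozygotes and wild type it was 1 in batch 2 alone, 0 by edgeR with the replicate block (3 at an unadjusted p under 0.05) and 0 to 4 with 1 library left out. Replicate numbers only name libraries here: of 7 same-numbered pairs, 2 correlated above 0.1 in their deviations from the genotype means (-0.596 to 0.57), so the block is given only as an alternative. Against controls it took the calls of wupA and sls (both 1.35), and of TpnCI, Chd64, unc-45, nau, repo and Syt1. The block also lowered the genes called from 4712 to 2747 for homozygotes against controls, from 2468 to 1212 against heterozygotes, from 4816 to 3079 against wild type and from 1917 to 866 for heterozygotes against wild type. With no batch term these counts were 3037, 1486, 2966 and 721, and in batch 2 alone the last was 3592. With 1 library left out they ran from 2966 to 6043, 1479 to 3131, 1962 to 5978 and 452 to 3908. Scaling by library totals moved the median of all genes by -0.13 against controls and -0.16 against wild type, and the higher share of the calls from 42.9% to 28.3%, from 29.7% to 11.6% against heterozygotes and from 42.5% to 28.9% against wild type, with no change of direction among the members.

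The summed share of the 7 genes ran from 0.270% to 0.446% in the wild type, 0.604% to 1.02% in the heterozygotes and 1.24% to 1.42% in the homozygotes when 1 library was left out, and the median pairwise r from 0.756 to 0.872. The log2 ratios to Mhc, homozygotes minus controls, ran from -0.50 to -0.038 for Mlc2, -0.84 to -0.20 for Mf, -1.25 to -0.72 for Tm1, -1.09 to -0.24 for wupA, -1.27 to -0.38 for sls and -1.79 to -0.83 for Zasp66. In batch 2 alone they were -0.65 for Mlc2 and -1.02 for Mf, which then passed.

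Some uncalled differences changed sign. With 1 library left out, the range was -0.11 to 0.33 for RyR, -0.074 to 0.051 for Argk1, -0.29 to 0.089 for Mef2 and -0.28 to 0.085 for LOC105182650 against the controls, and for heterozygotes against wild type -0.059 to 1.13 for wupA and -0.28 to 0.18 for Zasp66. RyR was at -0.51 with no batch term and -0.11 without wild-type replicate 1. Argk1 was at 0.018 with DESeq2 size factors and by DESeq2, 0.034 with no batch term, 0.088 with the replicate block, 0.012 without heterozygote replicate 3 and 0.051 without homozygote replicate 5. Mef2 was at 0.10 in batch 2 alone, 0.089 without wild-type replicate 2 and 0.014 without heterozygote replicate 3. LOC105182650, a support cell marker, was at 0.085 without wild-type replicate 1. Between heterozygotes and wild type, wupA was at -0.13 in batch 2 alone, -0.038 without wild-type replicate 2 and -0.059 without heterozygote replicate 3, and Zasp66 at 0.18 without wild-type replicate 1 and 0.10 without heterozygote replicate 2. The cause of these changes was not tested. Depth did not limit the members, whose lowest count was 553. The 2 wild-type libraries, 1 in each batch, limit every comparison with the wild type.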

Other observations

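Muscle is rich in mitochondria, and 45 nuclear genes of oxidative phosphorylation, found by symbol, were counted beside the sarcomere genes. Of these, 4 were higher (18.8% of all genes were) and 4 lower (25% of all genes were) in the homozygotes than in the controls, and 37 were not called, with a median log2 fold change of -0.060 against -0.040 over all genes. The median of the 7 sarcomere genes in the same comparison was 1.37. Genes of oxidative phosphorylation are not particular to muscle, so this list cannot measure a muscle share, and its relation to the sarcomere genes was not tested.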
